A study of Homo sapiens with 2 samples.

Results

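Ubiquitin-specific proteases (USPs) are the genes described here: the protein-coding genes on the autosomes that GENCODE, mapped to hg19, names USP followed by a number. The rule takes no measured value, and it gave 45 genes of 19229 autosomal protein-coding genes. SOX9 binding was measured by ChIP-seq in cells of the HT-29 line, which was derived from a colorectal adenocarcinoma, with 1 SOX9 ChIP library and 1 input library, that is, sheared chromatin sequenced without the antibody. Neither library had a replicate or a treatment, so nothing below has a replicate error. Intervals of tag ratios cover counting error only, and intervals of shares treat genes or peaks as independent draws. The cells were an unmodified cultured line that expresses endogenous SOX9, and the sample labels give DMEM as the medium where the methods give McCoy's 5A. Both libraries held 12320108 tags (mapped reads), and 17847 peaks were called.

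USPs are cysteine proteases that cut ubiquitin from proteins or from other ubiquitins. In this way they reverse the work of ubiquitin ligases, spare substrates from the proteasome, edit ubiquitin signals on histones and receptors, and keep up the pool of free ubiquitin. They are the most numerous family of deubiquitinases. SOX9, a transcription factor of intestinal crypt cells, binds DNA through an HMG box.

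A SOX9 peak lay at a promoter of most USP genes. A summit, the position of highest tag density within a peak, fell within 1 kb of an annotated transcription start site (TSS) in 29 of the 45 genes, or 64.4% (95% Wilson interval 49.8 to 76.8%), and in 46.0% of all autosomal protein-coding genes. With the main TSS of each gene alone, which was the MANE Select start for every USP gene, the count was 28 of 45, or 62.2%, beside 42.1% of all genes. The promoters were also rich in CpG. In 39 of the 45 genes (86.7%), but in 65.0% of all genes, the 500 bp to either side of the main TSS had a GC content of at least 50% and an observed over expected CpG of at least 0.6. Among genes with such promoters, 27 of 39 USP genes had a promoter peak, or 69.2%, beside 61.9% of all such genes. The USP genes also have more annotated starts, with a median of 9 per gene beside 5 over all genes. Among genes whose main promoter was not CpG-rich, 2 of 6 USP genes and 16.6% of all had a promoter peak. The part of CpG content or of the number of starts in the share of the family was not tested, and no test sets the family apart from other genes.

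The sequences under the summits show what the bound promoters are made of. Each is read 5′ to 3′ on the strand of its gene, from the GRCh37 genome (hg19), with matches to a searched motif in capitals. The first pair was chosen because USP15 and USP31 had the highest fold enrichments, at chr12:62653979-62654118 (plus strand) and chr16:23160792-23160972 (minus strand). The capitals mark GGGCGG, the GC box bound by SP1-type factors, in both promoters, and in USP31 also ATGGCG, the core of YY1 sites, and an E-box, with letters CACGTG, that overlaps a CRE core, with letters TGACGT. USP15 holds ATGGCG too, 71 to 76 bp downstream of its summit, beyond the end of the stretch shown. Neither promoter holds CCAAT within 100 bp of the summit.
USP15: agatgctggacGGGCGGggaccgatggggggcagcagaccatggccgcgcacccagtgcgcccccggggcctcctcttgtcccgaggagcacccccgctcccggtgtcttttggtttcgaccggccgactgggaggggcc
USP31: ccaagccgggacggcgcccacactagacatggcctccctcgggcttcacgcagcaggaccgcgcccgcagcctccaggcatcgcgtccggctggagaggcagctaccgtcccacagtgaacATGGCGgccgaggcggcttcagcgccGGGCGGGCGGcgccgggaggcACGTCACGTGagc

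The next sequences are shown because they hold the CCAAT box, the core bound by NF-Y, or its extended form. Motif 1 is CCAAT with purines at the 2 positions before it, then a C or G, then a purine. They lie at chr12:6960467-6960617 (plus strand, upstream of USP5), chr21:30397224-30397374 (plus strand) and chr6:41863114-41863224 (minus strand). USP16 carries Motif 1 in both orientations, 54 to 46 bp and 20 to 12 bp upstream of the summit. USP5 and USP49 have the CCAAT core without the flanks of Motif 1. GC boxes in USP49 are in capitals too.
USP5: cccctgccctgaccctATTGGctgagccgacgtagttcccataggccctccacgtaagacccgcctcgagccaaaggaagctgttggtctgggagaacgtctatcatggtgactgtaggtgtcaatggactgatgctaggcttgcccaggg
USP16: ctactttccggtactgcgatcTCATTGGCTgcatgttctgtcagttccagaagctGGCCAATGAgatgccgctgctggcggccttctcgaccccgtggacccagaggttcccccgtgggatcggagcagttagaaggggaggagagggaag
USP49: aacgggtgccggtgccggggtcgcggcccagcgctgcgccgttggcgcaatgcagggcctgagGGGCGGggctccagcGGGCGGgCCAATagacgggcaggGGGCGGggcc

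The summit region of USP1 joins both motifs in a short stretch. Motif 2, the classical SOX9 site, is CAA followed by A or T and then G, preceded by 2 bases that are each A or T. It was searched as this exact string, which is stricter than the weight matrix the study used and can miss sites that such a matrix accepts, so a gene without the string is not thereby a gene without the study's Motif 2. At chr1:62902141-62902170, on the plus strand and inside an annotated UTR, Motif 2 ran 11 to 17 bp downstream of the summit, and an inverted Motif 1 began in it and ran 16 to 24 bp downstream. The capitals cover both.
USP1: atgtcgAACAATGATTGGCTggagcccacc

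USP12 is shown because its peak had many tags but neither CCAAT nor Motif 2 within 100 bp of the summit. The same held for 21 of the 29 USP peaks, or 72.4%, and for 63.7% of all promoter peaks. The rest of its peak, which was 2124 bp wide, is not covered by this search. The USP12 stretch lies at chr13:27746099-27746249 on the minus strand, and the capitals mark a GC box.
USP12: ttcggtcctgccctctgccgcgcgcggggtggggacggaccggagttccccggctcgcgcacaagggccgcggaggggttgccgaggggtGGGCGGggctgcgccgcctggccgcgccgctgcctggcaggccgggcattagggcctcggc

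The main TSS gives a measure that every gene has. Tags within 500 bp of it ran between 2.40 and 206 in the SOX9 ChIP over the 45 USP genes, with a median of 45.2, and between 1.40 and 31.4 in the input, with a median of 15.0. Over all genes the medians were 25.8 in the SOX9 ChIP and 9.60 in the input. The ratio of SOX9 to input tags, with 1 tag added to each, had a median of 3.02 over the USP genes and of 2.25 over all genes. SOX9 tags exceeded input tags in 42 of the 45 genes, and the exact binomial 95% interval of the ratio lay above 1 in 37. The lower quartile of the ratio with 1 tag added was 2.23 over the USP genes and 1.17 over all genes. SOX9 tags thus exceeded input tags at most genes of the genome too. The share of all genes with an interval above 1 was not computed. Both libraries were higher at the same genes: over the 45 genes the Spearman correlation of SOX9 with input tags was 0.799, and over all genes 0.846. These points share 2 libraries and the openness and composition of their promoters, so the correlation only describes them.

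**Figure D1:**
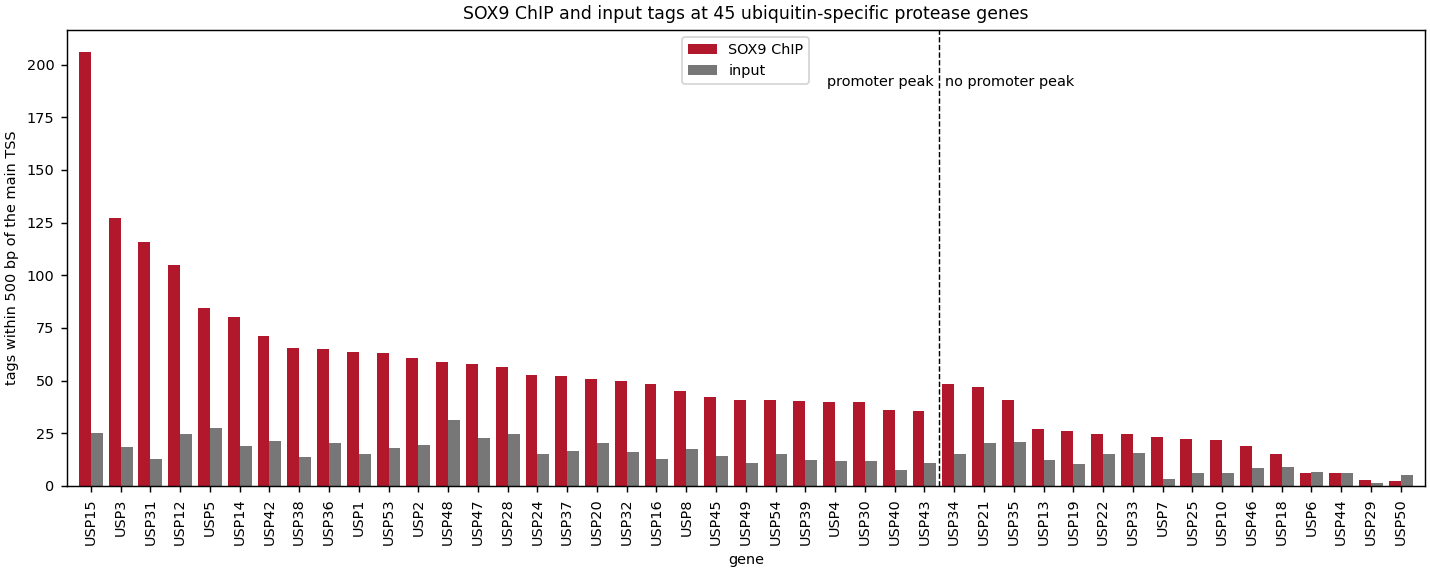
Tags within 500 bp of the main TSS of each USP gene (vertical axis) in the SOX9 ChIP (red) and the input (grey), with genes that have a promoter peak to the left of the dashed line. USP15 has 206 SOX9 tags, and USP34, USP21 and USP35 to the right of the line exceed several genes that have a peak.

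USP3, USP15, USP5 and USP12 had the peaks of most tags. Ratios of single genes are of SOX9 to input tags with nothing added. USP3, which removes ubiquitin from histone H2A, had a promoter peak of 212 tags at a fold enrichment of 28.2, with the summit 32 bp upstream of its TSS. That peak was 1976 bp wide and took in a lower hump further upstream. Within 500 bp of the main TSS of USP3 lay 127 SOX9 tags. USP15, which acts on TGF-β receptors and SMADs, had the highest SOX9 level at a main TSS, 206 tags in the SOX9 ChIP and 25.2 in the input, a ratio of 8.16 (exact interval 5.43 to 13.0). USP5, which takes apart unanchored ubiquitin chains, had 179 tags, but its summit lay 770 bp upstream. The start nearest to that summit was that of CDCA3, a cell division gene on the other strand, 86 bp away. At the main TSS of USP5 itself 84.4 SOX9 tags stood against 27.4 input tags.

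USP12, which works with the WD-repeat protein WDR48, had 166 tags at a fold enrichment of only 9.38. Its 1-Mb neighbourhood had 2.78 times the autosomal median of input, the highest level among the 45 genes, and the part of that level in the SOX9 count was not tested. The ratio at its main TSS, which sets SOX9 against the same local input, was 4.23 (2.69 to 6.78). In the input, 4 of the 45 genes had neighbourhoods above 1.5 times the median. They were USP2, USP3, USP12 and USP47.

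USP31, a regulator of NF-κB signalling, combined a medium count with little background. It had 113 tags in its peak at a fold enrichment of 39.4, the highest of the family, and 116 SOX9 tags beside 13.0 input tags at the TSS. That gave a ratio of 8.94 (5.02 to 17.3), whose interval contains that of USP15. USP1, which acts on FANCD2 and PCNA in DNA repair, had 110 tags over a broad peak, with its summit 161 bp downstream of an annotated start and 584 bp upstream of the main one.

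**Figure D2:**
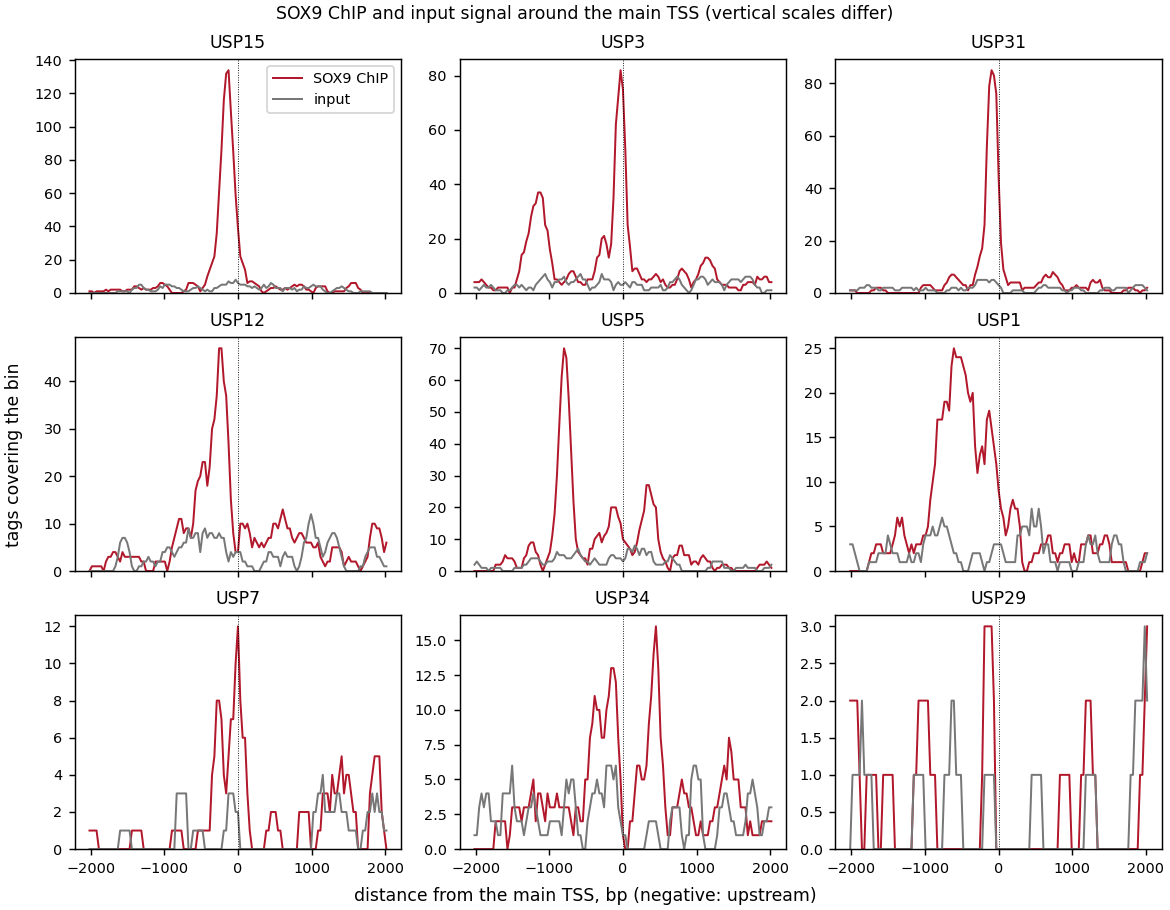
Tags covering each 32-nt bin (vertical axes, which differ between panels) against distance from the main TSS in bp, for the SOX9 ChIP (red) and the input (grey), in 9 USP genes. USP15 and USP31 show a single narrow summit near the TSS, USP3 has a lower second hump further upstream, USP5 has its summit 772 bp upstream of the main TSS, and USP7, USP34 and USP29 had no called promoter peak.

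The rest of the 12 genes with most tags, where USP38 and USP40 tied for the last place, were closer to the typical promoter peak. USP48, a nuclear USP, had 94 tags, and its main TSS had 58.8 SOX9 tags beside 31.4 input tags, the highest input level and, among genes with a peak, the lowest ratio (1.87, 1.21 to 3.04). USP53, a cell junction member grouped here with those of little or no known protease activity, had 84 tags. USP14, which rides on the proteasome, had 78 and USP37, which stabilises cyclin A, had 75. USP42, a p53 deubiquitinase, had 71 tags, and USP38 and USP40 had 70 each. The peak of USP40 with the most tags lay at an alternative start 84915 bp from its main TSS, while a second of 47 tags was 18 bp upstream of the main one.

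Against all genes the sizes of these peaks were ordinary. The median was 61 tags over the 29 USP genes and 59 over the 8851 genes with a promoter peak, with quartiles of 49 and 84 for the USP genes and 41 and 86 for all. Fold enrichment had a median of 9.09 for the USP genes and 10.1 for all. More than 100 tags were found in 6 of the 29 genes (20.7%) and in 17.8% of all. The summits lay at a median of 73 bp upstream of the nearest start of the gene, and 24 of 29 were upstream of it or at it, or 82.8%, beside 74.7% over all genes.

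**Figure D3:**
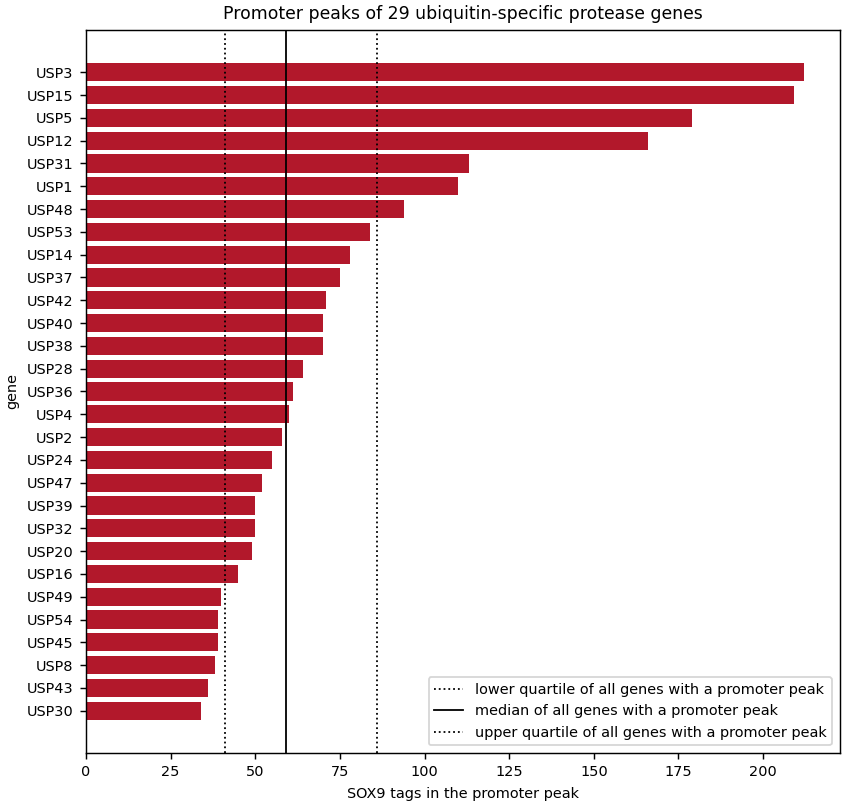
SOX9 tags in the promoter peak (horizontal axis) of the 29 USP genes that have one, in order, with the quartiles (dotted) and the median (solid) of all genes with a promoter peak. Of the 29, 7 lie above the upper quartile of 86 tags and 6 below the lower quartile of 41.

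No summit lay within 1 kb of a start in 16 genes, and these were not uniform. In 8 of them the interval of the ratio lay above 1 even so, that is, tags exceeded input without a called peak. The ratio with 1 tag added had a median of 2.01 over these 16 genes. Over all 10378 genes without a promoter peak that median was 1.33, and their share with an interval above 1 was not computed. USP34, an Axin-binding regulator of Wnt signalling, had 48.2 SOX9 tags and 15.0 input tags, spread over 2 low humps to either side of the TSS. USP21, a histone H2A deubiquitinase, had 47.0 and 20.4, and USP35, a mitochondrial member, had 40.6 and 20.8. These SOX9 levels exceed those of several genes with a peak, such as USP43, with 35.8 tags and a ratio of 3.25.

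USP7, the deubiquitinase of MDM2 and p53, had 23.2 SOX9 tags beside 3.2 input tags. Its ratio of 7.25 rests on few input tags and has an interval of 2.32 to 39.9. USP10, which acts on p53, had 22.0 SOX9 and 6.0 input tags, and USP25, a deubiquitinase in immune signalling, had 22.4 and 6.0. For all 3 the SOX9 tags were under the lowest value among genes with a promoter peak, 35.8.

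Another group had between 19.2 and 27.0 SOX9 tags: USP13 had 27.0 with 12.2 input tags, USP19, an enzyme of the endoplasmic reticulum membrane, had 26.0 with 10.2, and USP22, of the SAGA chromatin complex, had 24.8 with 15.4. USP33 had 24.6 with 15.6 and USP46 had 19.2 with 8.6. The intervals of USP22 (0.845 to 3.40), USP33 (0.802 to 3.13) and USP46 (0.910 to 5.30) include 1.

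The remaining members were near or under the input. USP18, which removes the ubiquitin-like ISG15 and is induced by interferon, had 15.2 SOX9 and 9.2 input tags, a ratio of 1.65 (0.683 to 4.32). USP6, an oncogene of bone cysts, had 6.2 and 6.8, USP44, of the mitotic checkpoint, had 6.0 and 6.2, USP29 had 3.0 and 1.4, and USP50 had 2.4 and 5.0. Only uniquely mapped reads were kept, so stretches that USP6 shares with USP32, or USP18 with its copies, can hold fewer tags in either library, and that was not tested. At these depths a difference between SOX9 and input was not detectable in any of the 5.

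Genes whose main promoter was not CpG-rich occurred both with and without a peak. Of these 6 genes, USP18, USP29, USP44 and USP50 had no promoter peak. USP40 and USP54 had one. USP18 missed only the GC limit, with 48.8% GC and an observed over expected CpG of 0.826, and USP29 had 0.594. USP44 and USP50 were lower, at 0.333 and 0.349. The median observed over expected CpG was 0.851 over the USP genes with a promoter peak and 0.811 over those without. The summit of USP54, another member with little known activity, lay 34883 bp upstream of its main start and 108 bp from an alternative one. Across the 45 genes the Spearman correlation of SOX9 tags with observed over expected CpG was 0.271, and over all genes 0.506.

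**Figure D4:**
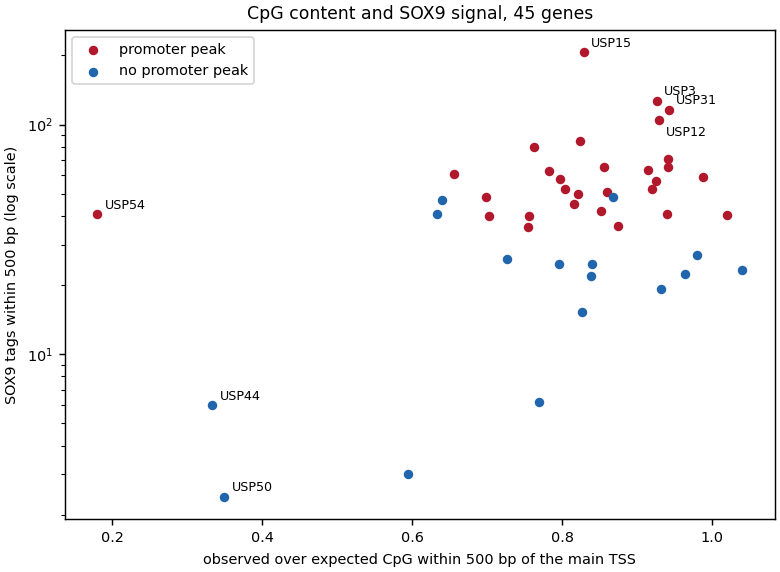
SOX9 tags within 500 bp of the main TSS (log axis) against observed over expected CpG in the same window, for the 45 USP genes, with promoter peak (red) or without (blue). USP44 and USP50 have low CpG and few tags, and USP54, at 0.180, has 40.6 tags near its main start and its peak at another.

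Close relatives by sequence are given side by side. USP15 had 209 tags in its peak and its relative USP4 had 60, and the ratios at their starts were 8.16 (5.43 to 13.0) and 3.33 (1.71 to 6.98), with intervals that overlap. USP5 had a peak and USP13 none, USP12 had a peak and USP46 none, USP20 had a peak of 49 tags and USP33 none, and USP28 had a peak of 64 tags and USP25 none. In each of these pairs the intervals of the ratio at the main starts overlapped. USP25, without a peak, had a ratio of 3.73 (1.44 to 11.1), above that of USP28, 2.28 (1.40 to 3.81). In the other pairs named with it the ratio was higher at the gene with the peak. USP3 had a peak of 212 tags and USP49 one of 40, while USP44, of the same group, had no promoter peak. USP32 had a peak of 50 tags where USP6 had no peak, and USP8, of endosomal sorting, had one of 38 where USP50 had no peak. Both genes also had a peak in the pairs of USP31 with 113 and USP43 with 36 tags, USP16 with 45 and USP45 with 39, and USP53 with 84 and USP54 with 39. These pairs are a description of 1 library, with no test between relatives.

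By role, the share with a promoter peak lay between 3 of 6 and 3 of 4 genes. Over all genes that share was 46.0%, and it was 61.9% among those with CpG-rich promoters. A peak was found in 5 of 7 among members that act on p53, MYC or the cell cycle, 6 of 9 in chromatin and DNA repair, 7 of 12 in growth factor, Wnt and immune signalling, 3 of 6 in organelles and membrane traffic, and 2 of 3 in the proteasome and free ubiquitin chains. Members with little or no known protease activity had a peak in 3 of 4, as did the members placed in no other group. The groups are too small to rank by these shares.

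The motif counts were near those of other promoter peaks. CCAAT lay within 100 bp of the summit, on either strand, in 7 of the 29 peaks, or 24.1% (Wilson interval 12.2 to 42.1%), and in 31.8% of 7532 promoter peaks of all genes. The genes were USP1, USP2, USP5, USP16, USP32, USP42 and USP49. Motif 1 was in 3, or 10.3%, and in 15.7% of all, and Motif 2 in 2, USP1 and USP47, or 6.90%, and in 7.26% of all. These counts take only the promoter peak with most tags of each gene. Among the further promoter peaks, CCAAT lay within 100 bp of a summit in USP39 and in USP43, and Motif 2 in USP3. The ETS core, with letters CCGGAAG, was in 7 peaks, or 24.1%, and in 17.3% of all.

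GGGCGG was in 20 peaks, or 69.0%, and in 63.1% of all. TGACGT and the E-box were each in 4 peaks, or 13.8%, beside 9.28% and 8.46% of all. ATGGCG was in 6 peaks, or 20.7%, and in 1202 of all 7532, and the palindrome CGCATGCG, contained in NRF1 sites, was in none (interval up to 11.7%), beside 1.74% of all. Every interval of the USP peaks covers the share of all promoter peaks. Some matches overlap, as the E-box and CRE core in USP31 and Motif 1 and CCAAT by construction. Peaks with CCAAT had a median of 58 tags and those without it 62.5.

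**Figure D5:**
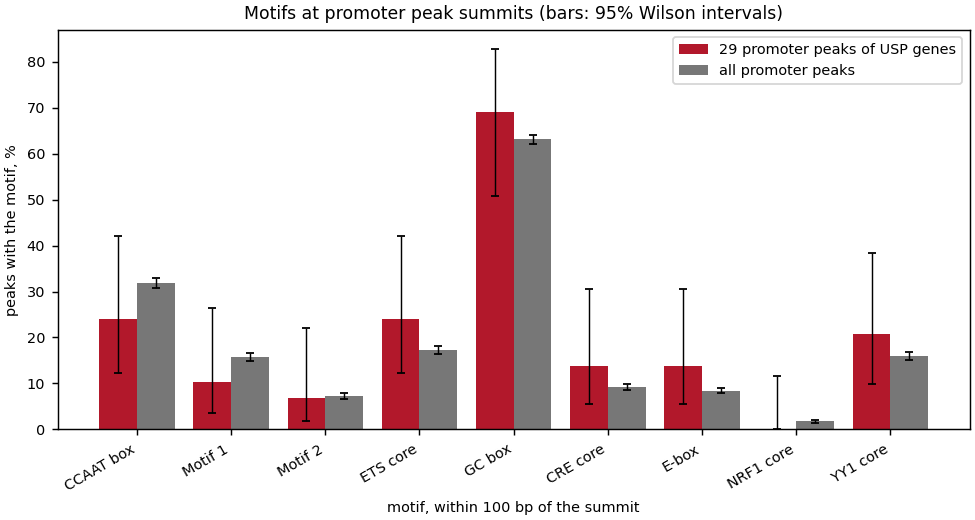
Share of promoter peaks with each motif within 100 bp of the summit (vertical axis, percent), in the 29 peaks of USP genes (red) and in all promoter peaks (grey), with 95% Wilson intervals. All intervals of the USP peaks cover the grey bars.

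Many summits had a start on the other strand nearby. In 13 of 29 cases (44.8%, and 44.8% over all genes with a promoter peak) a start on the other strand lay within 1 kb of the summit, and in 6 (20.7%, beside 2216 of the 8851 over all genes) it was that of a protein-coding gene. Among the noncoding partners are USP2-AS1, USP12-DT and USP38-DT, and among the coding ones TAFA2 at USP15, CNOT9 at USP37 and C9orf78 at USP20, whose start was at the summit itself. In 8 of 29 cases (27.6%, and 22.6% over all genes) the start nearest to the summit belonged to another gene, and which gene the peak belongs to cannot be told apart from these data.

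Other families that remove ubiquitin were counted in the same way. A promoter peak was found in 28 of 36 genes of the UCH, OTU, Josephin, JAMM, MINDY and ZUP1 families, some of whose JAMM members lack activity, or 77.8% (Wilson interval 61.9 to 88.3%), beside 64.4% of USP genes (49.8 to 76.8%) and 46.0% of all genes. By family the count ran between 3 of 5 for MINDY and ZUP1 and 3 of 3 for Josephin, and the difference from USP genes was not tested. The median over the 28 genes was 52 tags. UCHL3, a UCH enzyme that also acts on NEDD8, had the most, 312 tags, with 309 SOX9 and 29.2 input tags at its start, above every USP gene. COPS5, the COP9 signalosome subunit that removes NEDD8, had 171 tags. Without a promoter peak were UCHL1, OTUD7A, YOD1, ZRANB1, MYSM1, PRPF8, MINDY3 and ZUP1.

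The 3 USP-fold genes that carry other names all had one: USPL1, which acts on SUMO, with 245 tags, PAN2, of the deadenylase complex, with 94, and CYLD, which cuts linear and Lys63 chains, with 75. Of 5 partner proteins, ATXN7L3, ENY2 and ATXN7 of the SAGA module had a called peak, and their enzyme USP22 had none. WDR48 and WDR20, the partners of USP12, had none. Within 500 bp of the main TSS, ATXN7 had fewer SOX9 tags than the 24.8 of USP22, while ATXN7L3 had 86.8 and ENY2 had 85.4. The ratio with 1 tag added was 2.62 at ATXN7 and 1.57 at USP22. Over all genes the share with a promoter peak was 46.0%, and 61.9% among those with CpG-rich promoters. Differences from these shares were not tested.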

How the data were processed

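The authors aligned 50-nt reads to hg19 with BWA (version not given in the sources used here), kept unique alignments without duplicates, reduced the input to the ChIP's size and called peaks with MACS (p cut-off 1e-07, model fold 16). In the deposited peak table, tags are whole counts of ChIP reads in a peak, fold enrichment is a ratio to the local expectation from the input, the score is -10 times the log10 of the MACS p-value, and the FDR is a percent. The deposited signal maps give, for each bin of 32 nt, how many tags cover it after extension to 150 bp. An extended tag covers 5 bins, so signal sums were divided by 5. The bed list of the same peaks was not used, and some list genes and sequences are not reported here.

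TSSs came from GENCODE release 44 lifted to hg19. A promoter peak has its summit within 1 kb of a TSS, and the one with most tags represents the gene. Signal was summed over 500 bp to either side of the main TSS. Ratios of tags have exact binomial 95% intervals, which cover the counting error of tags only. Shares have Wilson intervals, which treat genes or peaks as independent draws, though members of a family are not. They are a description and no test. Sequence came from GRCh37. With 1 library per condition no test was run. Named genes were USP15, the 12 members of most tags, every member without a promoter peak, and members of paralogue pairs. The genes, lists and tests were chosen with earlier results of these data known. The tag sums, the ratio intervals, the CpG measure and the searches for CCAAT and GGGCGG were tested on simulated data. Alternatives changed distances, windows, TSS sets, pseudocount, peak score and motif. Tables were handled with pandas 2.3.3 in Python 3.11.15, intervals came from SciPy 1.17.1 with arrays in NumPy 2.4.6, and plots were drawn with matplotlib 3.10.9.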

Additional observations from a re-analysis of the deposited data

How the results depend on the processing

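Of 26 alternatives, 22 left the value within 1.5 times the count reported or within the 95% interval of the median, and 4 moved it. The number of USP genes with a promoter peak ran between 21, where the nearest start of any gene had to be the member's own (an alternative chosen after seeing the data), and 30, at 3 kb. At 3 kb the share of all genes was 48.8%. The median ratio of SOX9 to input tags was 2.28 with 1 kb to either side of the TSS in place of 500 bp. CCAAT was found in 16 peaks when the whole interval was searched, which is longer. The share of all promoter peaks was not computed for that search. Motif 1 in place of CCAAT was found in 3. The number of promoter peaks shared with a start on the other strand was 6 with protein-coding genes alone. No paired analysis was possible because each condition has 1 library and the labels carry no replicate numbers. At 12320108 tags per library, the intervals of the ratio included 1 at the starts of USP6, USP18, USP22, USP29, USP33, USP44, USP46 and USP50. No difference was detectable there.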

Other observations

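Inside the USP genes, more than 1 kb from every annotated start, 6 SOX9 peaks lay in 5 of the 45 genes (11.1%), beside 13.0% of all genes. The median gene length was 68.3 kb for the USP genes and 27.6 kb for all. USP25, an enzyme of immune signalling with no promoter peak, had 2 such peaks, of 28 and 13 tags, at fold enrichments of 15.71 and 14.58. USP7, also without a promoter peak, had 1 of 24 tags at 18.37. The others were in USP40 with 51 tags at 6.25, USP47 with 35 tags at 6.59 and USP54 with 44 tags at 17.14. Motif 2 lay within 100 bp of the summit in USP47, in USP54 and in the smaller peak of USP25, that is, in 3 of the 6, beside 34.2% of all 8038 autosomal peaks more than 1 kb from a start. A further 17 peaks lay within 10 kb of 13 USP genes, most of them near a start of another gene. The share of all genes with such a peak was not computed. These peaks were picked after their values were seen and have no test.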
